A study of Homo sapiens with 12 samples.

Results

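The genes described here are the SOX and forkhead (FOX) transcription factors of A673 Ewing sarcoma cells, followed after transcription was blocked with actinomycin D. They were taken by symbol from the table of counts per gene, as SOX or FOX followed by a number or by a subfamily letter and a number with no hyphen, which gave 70 of 26334 gene symbols (19 SOX and 51 FOX). One of these symbols, FOXL2NB, fits the spelling but is the neighbour of FOXL2 and encodes no forkhead protein. After a filter on low counts, 28 members (9 SOX and 19 FOX) could be tested. A further 22 had counts below the filter and 20 had no count in any library.

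RNA was sequenced from shA673-1c cells, an A673 clone named for an inducible short hairpin RNA against the EWSR1-FLI1 fusion, after 0, 1, 2 and 4 h in 5 µM actinomycin D, with 3 biological replicates at each time and 12 libraries in all. All groups shared the same clone and the same medium with Blasticidin and zeocyn, and the labels name no inducer of the hairpin. Libraries were poly(A)-selected and stranded. Because the line is 1 clone, p-values reflect the spread between replicates of that clone only.

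SOX proteins bind DNA through an HMG box, and forkhead proteins through a winged-helix domain. Both families hold factors that set lineage in neural crest, mesenchyme and neural progenitors, alongside forkhead proteins used in nearly every cell: FOXO factors act downstream of insulin and AKT signalling, FOXK factors in metabolism and autophagy, and FOXM1 drives genes of the G2 and M phases. In Ewing sarcoma, SOX2 and SOX6 have been tied to the EWSR1-FLI1 fusion as genes it raises, and FOXO1 as one it represses. Actinomycin D stops synthesis, so that the later loss of an mRNA follows its decay, and AUUUA pentamers in a 3′ untranslated region (UTR) are a known mark of short-lived mRNAs.

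Library totals ranged from 9147018 to 11194705 counts, and the common biological coefficient of variation was 0.0905. Of 12 Ewing sarcoma markers, 11 were detected above the filter (summed level 4377 to 5550 CPM, read counts relative to library size), whereas CD99, the surface marker of this tumour, was listed at 0 in all 12 libraries. CD99 lies in the pseudoautosomal region shared by the X and Y chromosomes. Whether its reads were lost in alignment or counting was not tested. Most of the summed level was CAV1 and CCND1 (means of 2492 and 1678 CPM at 0 h). The other detected markers ranged from 4.20 (PAX7) to 128.5 CPM (LIPI) at 0 h. Blood markers summed to 2.42 to 6.59 CPM, nearly all of it HBB, with CD3E at 0 and PTPRC at no more than 3 counts. HBB fell with time (slope -0.26), and its part in any result was not tested. Endothelial and epithelial markers summed to no more than 1.22 and 0.785 CPM, and KRT14 was at 0. The short-lived MYC and JUN mRNAs fell (slopes -1.12 and -0.89), whereas GAPDH and ACTB, whose mRNAs are long-lived, rose in share (0.15 and 0.12).

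All levels below are CPM scaled by TMM factors, and a slope is the fitted log2 change per hour over the 4 times, with its standard error and with a Benjamini-Hochberg adjusted p from edgeR's quasi-likelihood test over all 12032 genes tested. A member is called when its adjusted p is below 0.05. CPM is a share of the mRNA pool, so a slope is relative to the other mRNAs, and in bulk RNA fewer cells and less RNA per cell cannot be told apart. A half-life is the inverse of a called negative slope.

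AU-rich pentamer windows of the members that fell fastest are shown first. The pentamer density of the 3′ UTR is compared with the slopes further on. Each line is a stretch of 30 bases of the annotated 3′ UTR (GENCODE version 44, GRCh38, canonical transcript, mRNA strand, written as DNA), chosen as the window with the most ATTTA pentamers, which are in capitals. FOXP1 is added for its overlapping pair of pentamers, and FOXO3 and FOXO3B for a stretch that both genes hold. Such windows are not particular to fast falls. Those of the slower SOX6, FOXK2, FOXN2 and FOXN3, not printed here, hold 2 pentamers each. Overlapping pairs also occur in SOX6 and FOXK2.
FOXA1: tttgtggagggttATTTAaaaaaacaaaaa
SOX2: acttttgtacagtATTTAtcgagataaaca
SOX9: acttgctaaaattATTTAttttgtaaggag
FOXC1: ttgcaacatagtaATTTAtttttaatttgt
FOXO1: aatttgtacaaacATTTAaatggttctaat
SOX4: tatatgtggacgtATTTAtactggccaaac
FOXP1: actttcctgtcATTTATTTAtataggactg
FOXO3: cttcccctagcaaATTTAaaaacagaaaga
FOXO3B: cttcccctagcaaATTTAaaaacagaaaga
These windows lie in the 3′ UTRs of genes on chromosomes 14 (FOXA1, 37589552 to 37596059), 3 (SOX2, 181711925 to 181714436, and FOXP1, 70954693 to 71583978), 17 (SOX9, 72121020 to 72126416, and FOXO3B, 18667629 to 18682314), 6 (FOXC1, 1609915 to 1613897, SOX4, 21593751 to 21598619, and FOXO3, 108559835 to 108684774) and 13 (FOXO1, 40555667 to 40666641). No such line exists for FOXM1, FOXP4, SOX12 and FOXE1, whose annotated 3′ UTRs hold 0 ATTTA pentamers.

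Before treatment, the most abundant member per length was FOXM1, at 66.2 ± 4.93 CPM per kb of transcript (SD, n = 3). FOXK2 (20.7 ± 1.87), FOXJ3 (16.6 ± 0.260), SOX11 (16.1 ± 0.396) and SOX2 (14.6 ± 1.64) followed, and neighbours among the last 3 did not differ beyond their spread. SOX4, FOXP4 and SOX12 stood at 10.1 ± 0.482, 9.77 ± 0.682 and 8.65 ± 1.54 CPM per kb and did not differ beyond their spread. The least abundant tested members were FOXO4 (0.546 ± 0.0539), SOX5 (0.717 ± 0.0656), FOXE1 (0.719 ± 0.0385) and SOX8 (0.786 ± 0.166). The 70 members together took 0.114 to 0.121% of all counts at 0 h and 0.0615 to 0.0692% at 4 h.

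SOX mRNAs fell without exception among those tested. All 9 had a called negative slope, and the 3 libraries at 4 h lay below the 3 at 0 h for each of them. Of all genes tested, 32.1% were called lower and 30.7% higher by slope, and 33.0% had every 4 h library below every 0 h library. The median SOX slope was -0.32, beside 0.0093 for all genes tested.

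SOX2, the progenitor factor that keeps neural and pluripotent stem cells undifferentiated, measured 32.0, 38.3 and 39.7 CPM at 0 h, 26.6, 30.9 and 23.3 at 1 h, 6.76, 9.72 and 7.65 at 2 h and 4.03, 2.90 and 4.03 at 4 h. Levels at 1 h were already below all levels at 0 h, and the large drop came between 1 and 2 h. The slope was -0.91 ± 0.072 (adjusted p = 2.37e-08, edgeR), with 9.97% of the starting level left at 4 h. The half-life was 1.10 h (95% interval 0.945 to 1.32). SOX2 lies wholly within SOX2-OT on the same strand, but that transcript had no more than 8 counts in any library.

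SOX9, the master factor of cartilage and a neural crest factor, stood at 9.05, 10.5 and 13.2 CPM at 0 h, 7.18, 8.45 and 7.72 at 1 h, 2.19, 3.54 and 3.48 at 2 h and 0.948, 0.968 and 1.34 at 4 h. The 4 groups did not overlap, and the fall was as deep as that of SOX2, with 9.97% left at 4 h. The slope was -0.86 ± 0.067 (adjusted p = 1.89e-08, edgeR; half-life 1.16 h, 0.997 to 1.39). SOX8, of the same SoxE subfamily, was scarce, with 6 to 30 counts per library: 2.95, 1.93 and 2.40 CPM at 0 h, 1.34, 1.38 and 2.45 at 1 h, 2.19, 1.62 and 1.74 at 2 h and 0.948, 1.65 and 0.672 at 4 h. Its groups overlapped at neighbouring times. Its slope of -0.25 ± 0.082 (adjusted p = 0.0127, edgeR) was the weakest call of the family, and the call was lost without replicate 1 (adjusted p = 0.0828) or replicate 3 (adjusted p = 0.130).

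The SoxC factors SOX4, SOX11 and SOX12, which act in neural and mesenchymal progenitors, spread widely. SOX4 was at 48.2, 51.7 and 47.2 CPM at 0 h, 35.5, 37.3 and 28.7 at 1 h, 15.0, 13.7 and 13.0 at 2 h and 10.2, 8.32 and 11.5 at 4 h. It dropped at each step with no overlap between groups (slope -0.62 ± 0.056, adjusted p = 1.03e-07, edgeR; half-life 1.62 h, 1.36 to 2.00). Without the 4 h libraries the slope of SOX4 was -0.87, so this half-life depends on the times fitted. SOX11 went from 147, 147 and 141 CPM at 0 h to 116, 121 and 106 at 1 h, 68.7, 72.1 and 73.8 at 2 h and 40.2, 38.8 and 41.2 at 4 h. No groups overlapped (slope -0.48 ± 0.020, adjusted p = 2.43e-10, edgeR; half-life 2.09 h, 1.92 to 2.29). SOX12 was slower, at 35.4, 37.2 and 48.7 CPM at 0 h, 32.2, 35.2 and 48.5 at 1 h, 33.0, 29.8 and 37.4 at 2 h and 21.2, 22.1 and 25.8 at 4 h. Replicate 3 was highest for SOX12 at every time, and the 0, 1 and 2 h groups overlapped while 4 h lay below them (slope -0.21 ± 0.039, adjusted p = 0.000179, edgeR; half-life 4.78 h, 3.43 to 7.85, or 2.87 h when scaled to GAPDH plus ACTB).

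The SoxD factors SOX5, SOX6 and SOX13, which lack a transactivation domain of their own and act with partners, fell slowly. SOX6 was at 63.5, 52.4 and 55.9 CPM at 0 h, 52.5, 49.99 and 48.8 at 1 h, 39.2, 33.3 and 38.5 at 2 h and 27.6, 22.6 and 25.7 at 4 h, a steady descent in which only the 0 and 1 h groups touched. The slope was -0.31 ± 0.025 (adjusted p = 3.08e-08, edgeR; half-life 3.27 h, 2.79 to 3.94). SOX5 was at 4.92, 5.59 and 4.71 CPM at 0 h, 5.56, 3.63 and 4.99 at 1 h, 3.48, 4.25 and 3.97 at 2 h and 1.78, 2.32 and 2.13 at 4 h. For SOX5 the loss was seen mainly after 2 h (slope -0.32 ± 0.053, adjusted p = 7.15e-05, edgeR). SOX13 stood at 9.93, 9.16 and 11.8 CPM at 0 h, 11.4, 9.53 and 15.3 at 1 h, 7.15, 7.29 and 8.03 at 2 h and 6.28, 6.29 and 6.05 at 4 h. Levels at 1 h overlapped those at 0 h and reached higher, and both later groups lay below them (slope -0.22 ± 0.054, adjusted p = 0.00172, edgeR).

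**Figure D1:**
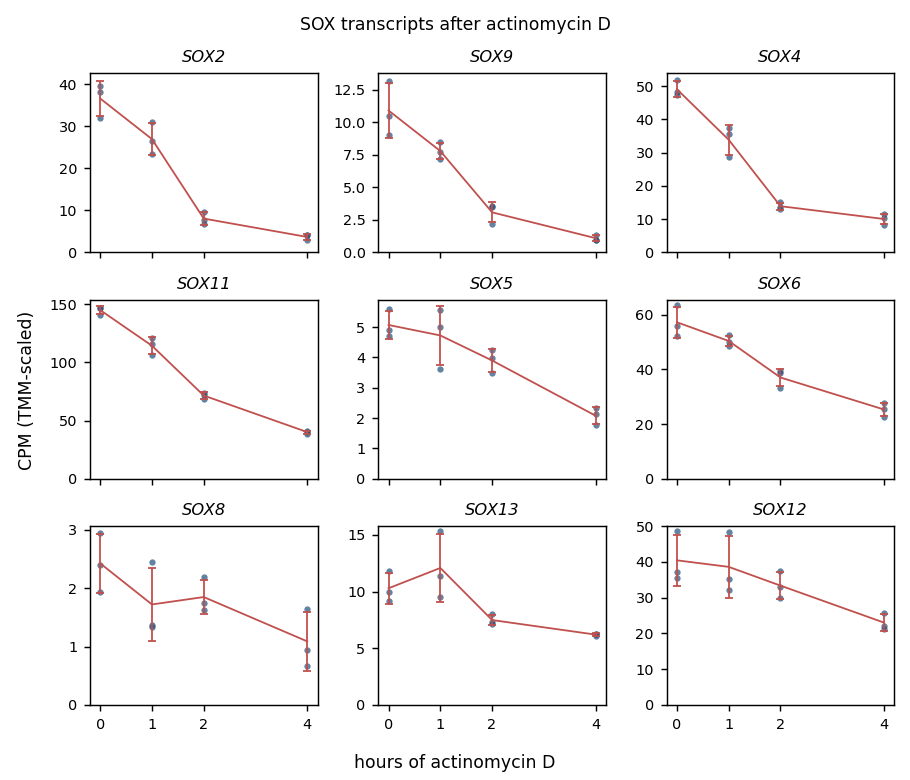
TMM-scaled CPM of the 9 tested SOX mRNAs (vertical axis, linear and from 0) against hours of actinomycin D, with 1 point per library and lines through the means with SD bars (n = 3). SOX2, SOX9 and SOX4 lose most of their level by 2 h, whereas SOX12 and SOX13 keep 56.9 and 60.3% at 4 h.

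Forkhead mRNAs fell in most cases but not in all. Of 19 tested, 16 were called lower by slope, 1 (FOXM1) higher and 2 (FOXP4 and FOXO4) neither, and the median slope was -0.37. The same 16 had all 4 h libraries below all 0 h libraries. Beside them, 32.1% of all genes tested were called lower and 30.7% higher by slope, with a median of 0.0093. Every 4 h library lay below every 0 h library in 33.0% of all genes. Leaving out FOXO3B, which shares sequence with FOXO3, gave 15 lower of 18.

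Among the tested members of either family, the steepest fall was that of FOXA1, a pioneer factor of endoderm and hormone-responsive epithelia. It was at 11.2, 13.7 and 11.01 CPM at 0 h, 6.90, 6.38 and 6.17 at 1 h, 1.89, 1.62 and 2.13 at 2 h and 0.592, 1.06 and 0.784 at 4 h. No groups overlapped, and it was the only forkhead mRNA called lower after 1 h without a replicate block. The slope was -1.07 ± 0.073 (adjusted p = 6.25e-09, edgeR), with 6.80% left at 4 h and a half-life of 0.939 h (0.820 to 1.10). FOXC1, a factor of mesenchyme and neural crest, followed with 7.97, 7.81 and 4.88 CPM at 0 h, 4.79, 5.70 and 4.45 at 1 h, 1.99, 1.72 and 1.26 at 2 h and 1.30, 0.871 and 0.784 at 4 h. Its 0 and 1 h groups overlapped through replicate 3 at 0 h, and the drop between 1 and 2 h was clear of overlap (slope -0.78 ± 0.086, adjusted p = 7.89e-07, edgeR; half-life 1.29 h, 1.04 to 1.68).

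FOXD1, a factor of kidney stroma, was at 7.28, 8.39 and 6.93 CPM at 0 h, 7.28, 6.38 and 5.99 at 1 h, 5.76, 4.46 and 3.39 at 2 h and 1.54, 2.13 and 1.68 at 4 h. The 4 h libraries stood clear below the rest (slope -0.51 ± 0.058, adjusted p = 1.24e-06, edgeR; half-life 1.98 h, 1.59 to 2.61). FOXF2, a factor of gut mesenchyme, and FOXE1, a thyroid factor, were low, with no more than 55 and 30 counts in a library. Both were called lower (slopes -0.36 ± 0.071 and -0.33 ± 0.083, adjusted p = 0.000351 and 0.00216, edgeR), from 4.72 to 4.80 CPM at 0 h to 0.829 to 2.24 at 4 h for FOXF2, and from 2.41 to 2.67 to 0.672 to 1.66 for FOXE1.

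Members of the FoxO subfamily, which carry the output of insulin and stress signalling to cell-cycle and survival genes, diverged. FOXO1 stood at 6.69, 6.75 and 6.13 CPM at 0 h, 5.08, 6.29 and 4.90 at 1 h, 2.29, 3.04 and 1.26 at 2 h and 1.42, 0.484 and 1.12 at 4 h. The 0 and 1 h groups overlapped, and the 2 and 4 h groups lay well below (slope -0.72 ± 0.085, adjusted p = 1.82e-06, edgeR; half-life 1.39 h, 1.11 to 1.86). FOXO3 was at 19.4, 18.0 and 19.2 CPM at 0 h, 15.0, 16.1 and 15.2 at 1 h, 8.94, 10.4 and 8.62 at 2 h and 4.38, 3.10 and 2.91 at 4 h. It fell at every step with no overlap (slope -0.61 ± 0.044, adjusted p = 8.55e-09, edgeR; half-life 1.63 h, 1.42 to 1.92). The slope of FOXO3 was -0.72 without the 0 h libraries and -0.49 without those at 4 h, so its half-life depends on the times fitted. FOXO4 was not called, at 2.16, 2.03 and 1.78 CPM at 0 h, 1.82, 2.36 and 2.18 at 1 h, 2.29, 2.43 and 2.32 at 2 h and 1.78, 1.65 and 4.03 at 4 h. Replicate 3 at 4 h stood apart, and the slope of 0.08 ± 0.070 (adjusted p = 0.334, edgeR; 95% interval -0.07 to 0.23) became -0.07 without replicate 3. FOXO6 was called lower (slope -0.42 ± 0.093, adjusted p = 0.000834, edgeR) on 1 to 26 counts per library. FOXO3B, a gene on chromosome 17, was also called lower (slope -0.41 ± 0.054, adjusted p = 6.59e-06, edgeR), but 46.6% of the 50-base words of its transcript also occur in that of FOXO3, so the values of FOXO3 and FOXO3B are uncertain as to how reads were divided. FOXO3B also overlaps ZNF286B on the same strand (22 to 58 counts per library).

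In the FoxP subfamily, whose members pair with each other as repressors, FOXP1 and FOXP4 parted. FOXP1 was at 29.6, 34.0 and 34.0 CPM at 0 h, 30.6, 34.7 and 30.2 at 1 h, 21.2, 23.9 and 19.0 at 2 h and 9.12, 8.90 and 8.96 at 4 h. It held its level through the first hour and then fell (slope -0.48 ± 0.044, adjusted p = 1.25e-07, edgeR; half-life 2.10 h, 1.75 to 2.61). Without the 0 h libraries the slope of FOXP1 was -0.61, so this half-life depends on the times fitted. FOXP4 went from 61.0, 53.8 and 60.8 CPM at 0 h to 70.2, 74.2 and 71.3 at 1 h, 66.8, 65.5 and 62.2 at 2 h and 73.7, 65.6 and 73.7 at 4 h. All later libraries were above all those at 0 h, although the slope of 0.05 ± 0.023 was not called (adjusted p = 0.0740, edgeR). The 4 h level was called higher (log2 change 0.28 ± 0.07, adjusted p = 0.00365, edgeR), with the caveat on scaling given further on.

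FOXM1, the G2 and M phase factor, was the single member called higher by slope. It measured 228, 222 and 255 CPM at 0 h, 274, 252 and 300 at 1 h, 276, 272 and 304 at 2 h and 340, 309 and 348 at 4 h. Its level at 4 h was above all libraries of the earlier times, and it rose in each replicate series (slopes 0.13, 0.12 and 0.10). The slope was 0.12 ± 0.019 (adjusted p = 4.72e-05, edgeR), and the 4 h level was 141% of that at 0 h. On the opposite strand FOXM1 overlaps RHNO1 (351 to 615 counts per library), which was not called (slope -0.03 ± 0.0235, adjusted p = 0.290, edgeR), and ITFG2 (182 to 257 counts), which was called higher (slope 0.12 ± 0.0262, adjusted p = 0.000784, edgeR). FOXM1 had at least 2306 counts in each library, and whether shared reads had a part in its rise was not tested.

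The broadly expressed FOXK, FOXJ and FOXN mRNAs fell at middling rates. FOXK1 was at 82.5, 59.7 and 63.9 CPM at 0 h, 58.4, 57.9 and 51.1 at 1 h, 40.4, 29.8 and 35.1 at 2 h and 26.3, 27.7 and 23.8 at 4 h. FOXK2 was at 120, 106 and 100 CPM at 0 h, 98.9, 100 and 104 at 1 h, 84.0, 82.4 and 72.8 at 2 h and 50.7, 51.0 and 47.1 at 4 h. Replicate 1 was highest at 0 h for both, and 4 h lay below every earlier library (slopes -0.37 ± 0.036 and -0.29 ± 0.023, adjusted p = 2.52e-07 and 1.89e-08, edgeR). FOXJ3, a factor of muscle and germ cells, was at 87.6, 87.2 and 85.1 CPM at 0 h, 75.0, 79.3 and 78.6 at 1 h, 43.5, 49.1 and 48.5 at 2 h and 32.0, 30.7 and 28.5 at 4 h. Its relative FOXJ2 was at 36.7, 37.2 and 36.7 CPM at 0 h, 32.9, 34.2 and 33.9 at 1 h, 25.7, 23.8 and 25.8 at 2 h and 15.5, 13.8 and 15.9 at 4 h. Neither gene had overlapping groups at any pair of times (slopes -0.40 ± 0.027 and -0.33 ± 0.024, adjusted p = 5.87e-09 and 1.10e-08, edgeR).

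FOXN2 was at 39.6, 39.1 and 41.7 CPM at 0 h, 35.6, 34.6 and 34.4 at 1 h, 23.6, 21.3 and 22.9 at 2 h and 15.1, 14.5 and 15.6 at 4 h, again with no overlap (slope -0.37 ± 0.025, adjusted p = 6.11e-09, edgeR; half-life 2.69 h, 2.35 to 3.14). FOXN3, a repressor linked to the DNA damage checkpoint, was at 33.9, 24.9 and 32.9 CPM at 0 h, 30.6, 23.6 and 24.9 at 1 h, 25.6, 21.3 and 23.1 at 2 h and 18.8, 16.6 and 18.6 at 4 h. It was the slowest of the called falls, with overlap at all but the last time (slope -0.19 ± 0.031, adjusted p = 5.71e-05, edgeR; half-life 5.26 h, 3.90 to 8.07, or 3.05 h when scaled to GAPDH plus ACTB).

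**Figure D2:**
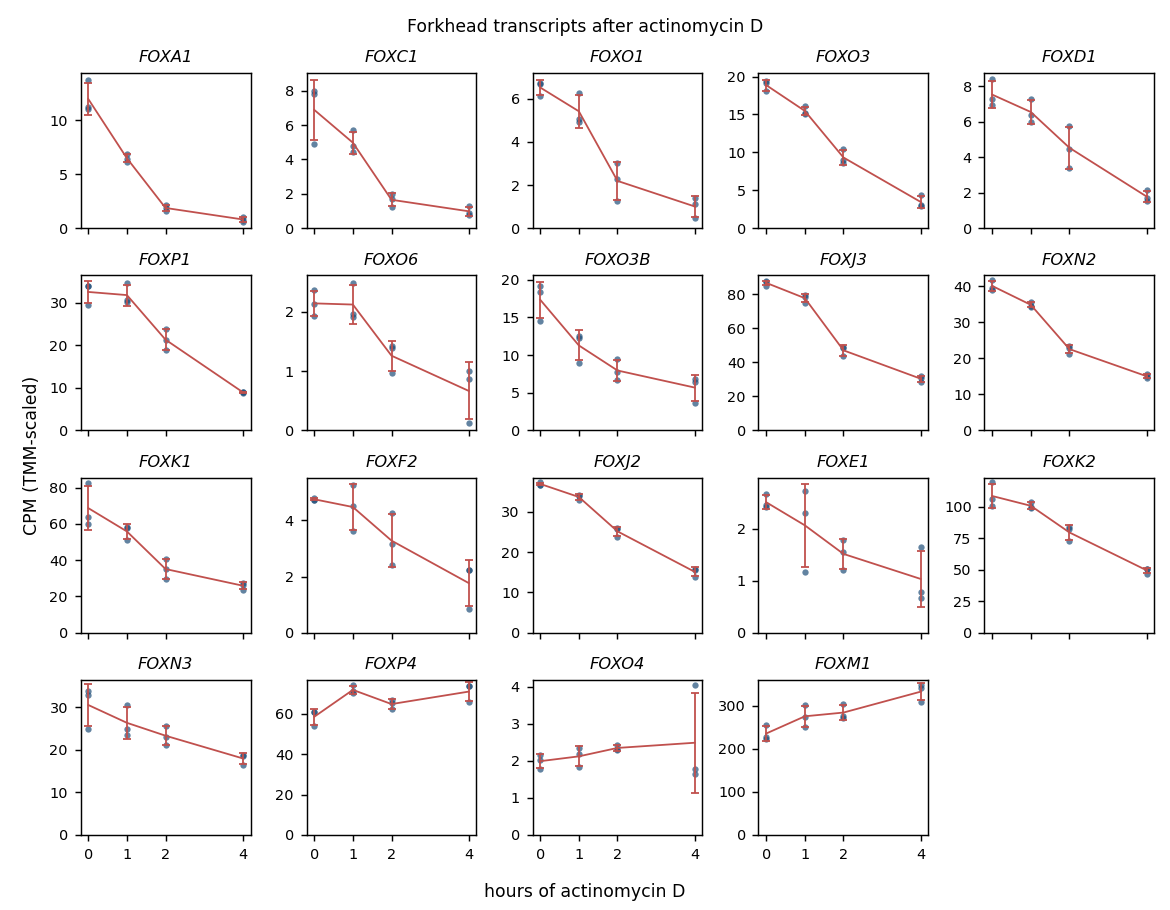
TMM-scaled CPM of the 19 tested forkhead mRNAs (vertical axis, linear and from 0) against hours of actinomycin D, with 1 point per library and lines through the means with SD bars (n = 3). FOXA1 falls to 6.80% of its starting level by 4 h, while FOXP4 and FOXM1 end at 121 and 141%.

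Set side by side, the families covered similar ranges. SOX slopes ran from -0.91 to -0.21 and FOX slopes from -1.07 to 0.12. Half-lives had a median of 3.17 h for the 9 SOX and 2.48 h for the 16 falling FOX mRNAs, and 3 SOX and 5 FOX mRNAs were under 2 h. The FOX median leaves out FOXM1, FOXP4 and FOXO4, which had no called fall, so the sets are unlike. Over all tested members the median slopes were -0.32 (SOX) and -0.37 (FOX). What share of all genes was under 2 h was not counted. In the order of all 25 half-lives, no neighbours had separate 95% intervals, so the order is firm only between distant members, such as FOXA1 (0.820 to 1.10 h) and FOXN3 (3.90 to 8.07 h). No test between the families was made.

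**Figure D3:**
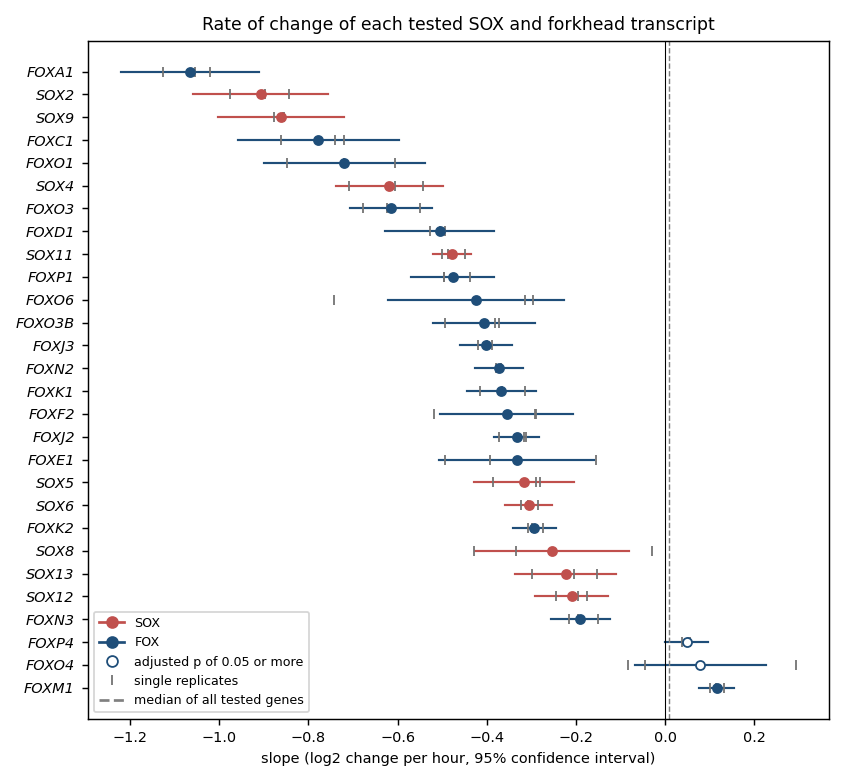
Fitted slopes in log2 change per hour (horizontal axis) of the 28 tested members in order, as points with 95% interval bars coloured by family (open where not called), ticks for the 3 single replicates and a dashed line at the median of all genes tested. The falls run from FOXA1 (-1.07) to FOXN3 (-0.19), and FOXM1 is the only member called above 0.

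The falls gathered over time. After 1 h, 2 SOX (SOX4 and SOX11) and 1 FOX (FOXA1) were called lower and 1 FOX (FOXP4) higher, where 2.24 and 0.349% of all genes were called. These 1 h calls were few and fragile: without replicate 1 or without replicate 2, 0 of them held. The replicate numbers of the labels proved to pair the samples, and with them as a block 5 SOX and 7 FOX were lower at 1 h and 2 FOX higher (10.5 and 6.18% of all genes). At an unadjusted p below 0.05, 11 members were lower and 2 higher (9.40 and 4.77% of all genes). In 11 of 28 members all 1 h libraries lay below all 0 h libraries, as in 12.7% of all genes.

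By 2 h, 5 SOX and 13 FOX mRNAs were called lower and 1 FOX (FOXM1) higher, against 19.4 and 10.8% of all genes. All 2 h libraries lay below all 0 h libraries in 22 members and in 24.5% of all genes. With the block, 7 SOX and 16 FOX were lower at 2 h, SOX12, SOX13, FOXE1, FOXF2 and FOXO6 being added, and 2 FOX (FOXM1 and FOXP4) were higher (26.5% of all genes lower and 23.9% higher). At 4 h, 9 SOX and 16 FOX were lower and 2 FOX (FOXM1 and FOXP4) higher, against 31.6 and 28.7% (36.0 and 36.8% with the block). For the slope, the block gave 34.8 and 36.2% of all genes and the same 25 lower and 1 higher members by count. The contrasts share the 0 h libraries.

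The second hour held the largest mean rate of loss for most falling members, as it did for most falling genes. Of 25, 17 (68.0%) had their steepest mean step between 1 and 2 h, 3 between 0 and 1 h and 5 between 2 and 4 h, whereas 52.2% of all 3859 falling genes were steepest between 1 and 2 h. Median rates of the members were -0.21, -0.63 and -0.37 log2 per hour over the 3 intervals, and those of all falling genes -0.14, -0.29 and -0.21. In SOX2 the mean rate was -0.45 ± 0.278 (SD, n = 3) over the first hour, -1.75 ± 0.197 over the second and -0.56 ± 0.265 per hour afterwards. FOXJ3 likewise went from -0.16 ± 0.0583 to -0.72 ± 0.0525 and then -0.31 ± 0.0838. In some of the 17 the steepest step was not clear of the spread. FOXE1 had -0.36 ± 0.564, -0.37 ± 0.419 and -0.31 ± 0.259 over the 3 intervals. FOXK2 had -0.10 ± 0.163, -0.34 ± 0.150 and -0.34 ± 0.0249. The last interval spans 2 h, so its rate is an average over a longer step.

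Whether the first hour differed from the following 3 was tested as the rate of the first hour minus the mean rate of the others. No member was called (0.0416% of all genes lower and 0.133% higher, edgeR), with 10 members higher at an unadjusted p below 0.05 (6.77% of all genes) and 1 (FOXP1) called by DESeq2. With the replicate block, 9 members were called higher, that is slower in loss or faster in gain during the first hour: SOX2, SOX13, FOXJ2, FOXJ3, FOXK2, FOXM1, FOXO3, FOXP1 and FOXP4 (7.47% of all genes higher and 5.38% lower). A further contrast, the change of the second hour minus that of the first, was added after the values had been seen. It called no member without the block (0.175% of all genes lower and 0.0% higher, edgeR; 13 members and 6.84% of all genes lower at an unadjusted p below 0.05; SOX2 and FOXJ3 called by DESeq2) and 12 lower with it, 5 SOX and 7 FOX (6.80 and 4.19% of all genes lower and higher). SOX2 had the largest blocked difference, -1.30 ± 0.179 (adjusted p = 1.62e-05, edgeR). Since this contrast was added with the values known, its p-values are descriptive only.

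**Figure D4:**
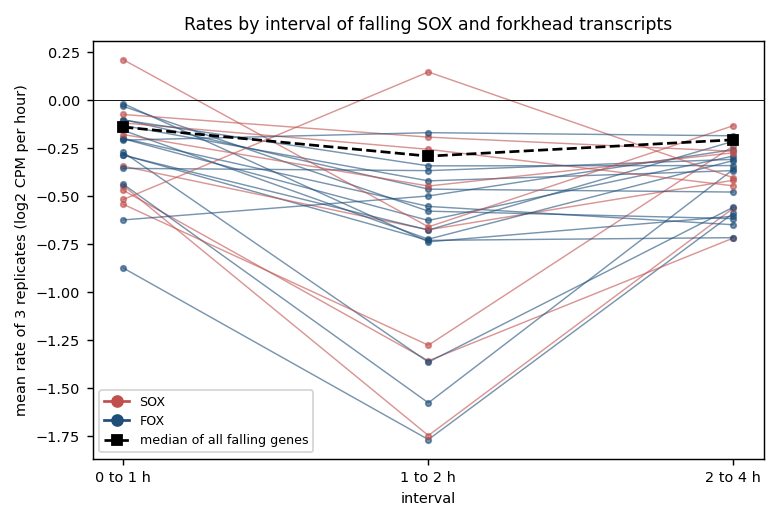
Mean log2 change per hour of falling members (vertical axis, mean of 3 replicates) in the intervals 0 to 1, 1 to 2 and 2 to 4 h, with 1 line per SOX or FOX mRNA and black squares for the median of all falling genes. The middle interval holds the steepest rate for 17 of 25 members (68.0%) and for 52.2% of all falling genes. Medians of the members are -0.21, -0.63 and -0.37.

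Slopes were also compared between members of 1 subfamily. Of 17 pairs of paralogs, 12 differed in the same direction in all 3 replicate series, and 11 had replicate slopes that did not overlap. With 3 series an exact two-sided sign-flip permutation test cannot go below p = 0.25 (adjusted p = 0.354 over the 17 pairs), so no pair could pass the threshold. The share of other gene pairs that differ in this way was not counted. Pairs that share a gene are not independent, and those with FOXO4 rest on its 15 to 36 counts per library. The slope of SOX8 minus that of SOX9 was 0.60 ± 0.206 (SD, n = 3), that of SOX4 minus SOX12 was -0.41 ± 0.109, and that of FOXP1 minus FOXP4 was -0.52 ± 0.0287. SOX5 minus SOX6 gave -0.01 ± 0.0610, with differences from -0.08 to 0.04 in the 3 series.

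The 3′ UTR content of members ran with their slopes. Over the 27 members with an annotated 3′ UTR (FOXO6 has none), pentamers per kilobase had a Pearson r of -0.663 and a Spearman rho of -0.603 with the slope. The share of A and T had -0.681 and -0.649, and the part of base composition in the pentamer values was not tested. Over all 10814 genes with a 3′ UTR the pentamer values were -0.118 and -0.238. These are descriptions across genes of the same libraries, which are not independent replicates, and the annotated 3′ UTR may not be the one used in these cells. The pentamers were counted on the mRNA strand only, overlapping ones included, and the longer motif TATTTAT contains the pentamer.

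SOX2, SOX9 and FOXA1 held 4.46, 3.94 and 3.86 pentamers per kb, and the 7 members with at least 3 per kb had a median slope of -0.78, beside -0.02 for the 3098 genes of that density overall. Their number also includes SOX5, SOX6 and FOXN2, at 3.61, 3.77 and 3.63 per kb, with slopes no steeper than -0.37. The 4 members with none (FOXM1, FOXP4, SOX12 and FOXE1) had a median slope of -0.08. FOXO4, SOX13 and FOXF2 held 1 each, with slopes of 0.08, -0.22 and -0.36. Low density also went with fast loss: FOXO3 and SOX4, at 1.204 and 1.504 pentamers per kb, had slopes of -0.61 and -0.62. ATTTA occurred in 88.9% of tested SOX, 83.3% of tested FOX and 75.1% of all 3′ UTRs, irrespective of length. The motif TATTTAT occurred in 8 of 9 SOX, 7 of 18 FOX and 37.6% of all 3′ UTRs, but the median 3′ UTR of SOX members was 2660 bases beside 1416.5 for all genes. TGTANATA, the Pumilio motif, occurred in 5 SOX (55.6%) and 11 FOX (61.1%) 3′ UTRs and in 31.7% of all. The median 3′ UTR of FOX members was 3132.5 bases, also longer than that of all genes, and these shares were not adjusted for length.

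**Figure D5:**
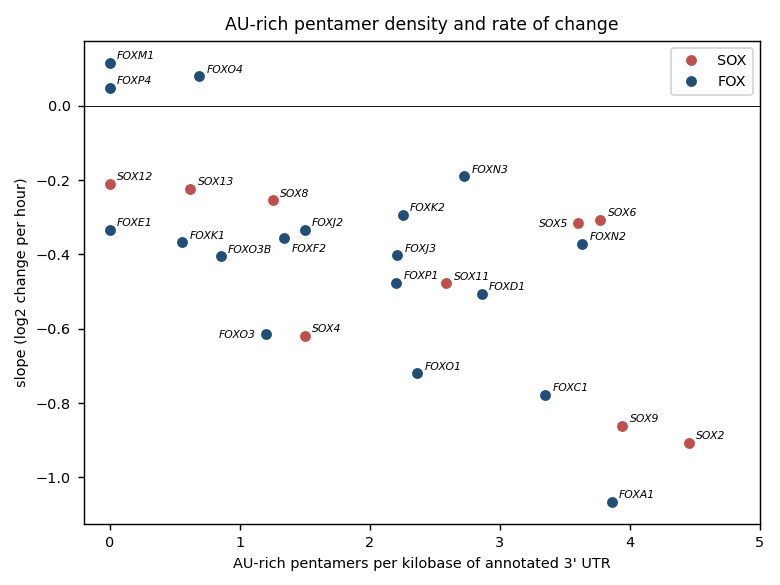
Slope in log2 change per hour (vertical axis) against AU-rich pentamers per kilobase of annotated 3′ UTR (horizontal axis) for 27 tested members, coloured by family. Members with none reach from -0.33 (FOXE1) to 0.12 (FOXM1), and the 3 steepest falls lie at 3.86 per kb or more.

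Below the filter of a mean of 10 counts stood 22 members. Summed over the 3 libraries at 0, 1, 2 and 4 h, SOX18, a factor of vessel endothelium, had 41, 29, 17 and 2 counts, and SOX7, of the same subfamily, 22, 29, 12 and 4. FOXD3, a neural crest factor, had 23, 9, 3 and 2 counts, FOXD2 had 24, 8, 5 and 3, and FOXF1 had 20, 14, 3 and 5. FOXC2, the close relative of FOXC1, had 13, 10, 0 and 0, so no fold is given for it. With the filter lowered to a mean of 1 count, these 6 were called lower by slope, as were 27.0% of the 15025 genes tested at that filter, and FOXL1 (36, 21, 24 and 21 counts), FOXL2 and SOX15 were not. They share the downward direction of FOXC1, FOXD1 and FOXF2, at a depth where few reads carry each value. The other 13, which include SOX3, SOX21, SOX30, FOXA3, FOXD4, FOXE3, FOXH1, FOXJ1, FOXL2NB, FOXP2, FOXP3 and FOXS1, had no more than 3 counts in any library. No count at all was listed for SOX1, SOX10, SOX14, SOX17, FOXA2, FOXB1, FOXB2, FOXD4L1, FOXD4L3, FOXD4L4, FOXD4L5, FOXD4L6, FOXI1, FOXI2, FOXI3, FOXN1, FOXN4, FOXQ1, FOXR1 and FOXR2.

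Genes around the members were read from lists of textbook relatives and targets. Of 13 other HMG-box genes 11 were tested, and 7 fell and 0 rose by slope (median -0.16), with TOX3 (-0.60 ± 0.0517) and HMGXB4 (-0.47 ± 0.0348) the steepest. Of 12 FOXO regulators all were tested, with 8 falling and 2 rising (median -0.13). Among them AKT1 and AKT2, the kinases that exclude FOXO from the nucleus, rose (0.14 ± 0.0172 and 0.13 ± 0.0115), while SGK1, a kinase of the same kind, fell (-1.10 ± 0.0908) and the coactivators CREBBP and EP300 fell (-0.47 ± 0.0442 and -0.41 ± 0.0281).

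Of 17 FOXO targets 15 were tested, and 12 fell and 2 rose (median -0.23). CITED2 (-1.26 ± 0.0952), TXNIP (-0.65 ± 0.0757), IRS2 (-0.64 ± 0.0358) and the cell-cycle inhibitor CDKN1B (-0.61 ± 0.0369) fell, and the antioxidant enzymes SOD2 (0.08 ± 0.0165) and CAT (0.09 ± 0.0299) rose. Of 16 genes listed as mitotic targets of FOXM1 all were tested, with 9 falling, 2 rising and 5 neither (median -0.05). The kinases AURKA (-0.41 ± 0.0285) and PLK1 (-0.19 ± 0.0274) fell, while only MYBL2 (0.11 ± 0.0170) and BIRC5 (0.10 ± 0.0140) rose in share. Of 12 partners and targets of SOX factors 7 were tested, and 3 fell and 4 rose (median 0.04): the POU factor POU3F2, a partner of SOX2 and SOX11, fell (-0.49 ± 0.0585), and TUBB3, a neuronal tubulin downstream of SOX11, rose (0.13 ± 0.0187). All calls are from edgeR, and by slope 32.1% of all genes fell and 30.7% rose. Rises in these lists are in share of the mRNA pool, and none had a slope above 0.14. Scaled to GAPDH plus ACTB, the median slope of all genes moved by -0.14 and 112 genes rose, so these rises may not hold on that scale.

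The rises of FOXM1 and FOXP4 depended on the scale. When counts were scaled to GAPDH plus ACTB, the median slope of all genes moved by -0.14 (7729 genes falling, 112 rising). FOXM1 then had a slope of -0.02 (adjusted p = 0.491), FOXP4 of -0.09 (adjusted p = 0.00803, called lower) and FOXO4 of -0.05 (adjusted p = 0.546), all from edgeR. With library totals FOXM1 was still called higher (slope 0.08, adjusted p = 0.00634, edgeR). The 25 falling members were called lower when scaled to GAPDH plus ACTB as well, but their half-lives were 1.12 to 1.72 times shorter, and over 1.5 times shorter for the 4 slowest: SOX8 (2.57 h), SOX13 (2.76 h), SOX12 (2.87 h) and FOXN3 (3.05 h).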

How the data were processed

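For each of the 12 libraries the authors deposited unnormalized read counts by gene symbol, as whole numbers with every row named for a gene. Per the labels, RNA was poly(A)-selected and libraries were made with a stranded kit. The submitters' processing notes name FastQC, STAR and the build hg19. The paper describes Prinseq, STAR for rRNA, Salmon and tximport for this kind of library without naming the A673 samples, and the counting tool and strand setting of these counts are not given in the sources used here. Reads of overlapping or near-identical genes may therefore have been divided in an unknown way.

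Columns were matched to samples by title, with 0 left over. Genes whose mean over libraries reached 10 counts (12032 of 26334) were fitted with edgeR 4.0.16 (glmQLFit and glmQLFTest, R 4.3.3) after TMM scaling (factors 0.924 to 1.05), with time in hours as a number or as 4 groups and no block, and p-values were adjusted over all genes tested by the Benjamini-Hochberg method. Standard errors come from the F statistic. The fit was tested on simulated data. Replicates differed by more than sampling noise (chi-square per degree of freedom 3.23 to 8.73), so no pair was counted as 1 library. That spread may include library preparation.

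Replicate numbers in the labels were checked for pairing on genes averaging 100 counts or more. Deviations from the time means correlated at 0.45 to 0.774 between same-numbered samples (18 pairs) and at -0.55 to 0.112 between others (36 pairs), so the numbers were taken to pair the samples. The fit with the replicate block is given where it changed a call.

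Members and gene lists (HMG-box relatives, SOX partners and targets, FOXO regulators and targets, FOXM1 mitotic targets, markers) were chosen with earlier results of these data known. Some members of these sets are not reported here by name. Values in each library are given for the 5 steepest called falls and rises of each family and for a set list of members. Transcripts, 3′ UTRs and coordinates are of GENCODE version 44 on GRCh38, matched by symbol: 11155 of the tested genes had 1 canonical transcript and 10814 a 3′ UTR. The alternatives were DESeq2 1.42.0 (its size factors and its Wald test), library totals, scaling to GAPDH plus ACTB, filters at a mean of 1 and 30 counts and none, the replicate block, and leaving out each replicate or the 0 or 4 h libraries. Paralogs were compared with scipy 1.17.1.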

Additional observations from a re-analysis of the deposited data

How the results depend on the processing

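Of 360 slope values of single members under the alternatives, 344 kept their direction and side of the threshold, 11 were no longer called and 5 turned. Those that turned were FOXP4 (-0.0896 scaled to GAPDH plus ACTB, -0.00048 without 0 h), FOXO4 (-0.0549 scaled to GAPDH plus ACTB, and -0.0684 to 0.152 when 1 replicate was left out, the lowest without replicate 3) and FOXM1 (-0.0227 scaled to GAPDH plus ACTB). SOX8 was no longer called without replicate 1, replicate 3, 0 h or 4 h. FOXO6, FOXF2, FOXE1, SOX5, SOX13, SOX12 and FOXN3 were no longer called without 4 h, which left 5 SOX called lower by slope. In that fit 18.3% of all genes were called lower. FOX called higher by slope numbered 0 when scaled to GAPDH plus ACTB and 3 with no filter, where FOXH1 and FOXP3, with no more than 3 counts in a library, were added. Of all genes, 112 of 12032 and 3543 of 18937 were called higher in these fits. FOX called higher numbered 0 at 1 h and 0 at 2 h with library totals as with GAPDH plus ACTB, and 1 and 0 at 4 h. FOX called lower at 1 h numbered 2 with GAPDH plus ACTB. With the replicate block, 5 SOX and 7 FOX were lower and 2 FOX higher at 1 h, 2 FOX were higher at 2 h, 2 SOX and 7 FOX were higher for the first hour's rate minus the later rate, and 5 SOX and 7 FOX were lower for the second hour minus the first. With it 7 SOX and 16 FOX were lower at 2 h, and no other count of calls moved by more than 1.5 times. The first hour's rate minus the later rate called 1 FOX with library totals, no filter or DESeq2. For the second hour minus the first, library totals and DESeq2 each called 1 SOX and 1 FOX lower, and no filter 1 SOX. Without 1 replicate, SOX called lower ranged from 0 to 2 at 1 h, 5 to 5 at 2 h, 8 to 9 at 4 h and by slope, and 0 to 1 for the second hour minus the first. FOX called lower ranged from 0 to 1 at 1 h, 12 to 12 at 2 h, 15 to 16 at 4 h and 16 to 16 by slope, and FOX called higher from 0 to 0 at 1 h, 0 to 1 at 2 h and 2 to 2 at 4 h. By slope, 29.3, 28.8 and 30.6% of all genes were lower without replicates 1, 2 and 3, and 39.1% with library totals. For the other contrasts, shares of all genes were counted only in the main fit and with the block. The cause of these shifts was not tested, except that fits without a time or replicate hold fewer libraries. FOXO6, SOX8, FOXE1 and FOXO4 each had no more than 36 counts in a library.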
